A study of Mus musculus with 24 samples.

Results

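The mitochondrial ribosomal protein genes are the nuclear genes Mrpl and Mrps, and here they were taken as every array probe whose gene symbol begins with Mrpl or Mrps followed by a number. Of 23978 probes with a gene symbol, 110 met this rule, and they stood for 76 of 16593 genes: 47 Mrpl genes with 68 probes and 29 Mrps genes with 42 probes. A gene was tested if a probe for it was detected (detection p under 0.01) on at least 2 of the 24 arrays. This left 70 of the 76 genes, 43 Mrpl and 27 Mrps, among 8969 genes tested, and 68 of the 70 were detected on every array. Mrpl19, Mrpl21, Mrpl32, Mrpl45, Mrps14 and Mrps36 were not tested for want of detection. Mrpl41 and Mrpl44 were not among the named probes.

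The study compared livers and liver tumors of 9-month-old male mice, either wild-type C57BL/6J or a Chop-/- line bred onto that background. Chop (Ddit3) encodes a transcription factor that cells make under stress, and in Chop-/- mice it is missing from all cells of the body rather than from hepatocytes alone. At day 15 of age they were injected once, either with PBS or with the liver carcinogen diethylnitrosamine (DEN) at 25 mg/kg. Whole livers came from 3 wild-type and 3 Chop-/- mice given PBS and from 6 wild-type and 7 Chop-/- mice given DEN. The large tumors of mice given DEN were 3 wild-type and 2 Chop-/- samples. The DEN-treated livers held nodular as well as uninvolved tissue. The sources do not say whether a tumor and a liver, or 2 tumors, came from the same mouse, and p-values therefore measure only the spread between these samples.

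Total RNA of each sample was read on 1 Illumina MouseRef-8 v2.0 array, and levels below are normalized log2 intensities of 1 probe per gene, which can be compared between samples but not between genes. The array names place the 24 arrays in 3 sets of 8, called A, B and C here. Each set held 1 PBS-treated liver of each genotype, sets A and B held 2 and 1 of the wild-type tumors, and sets B and C held 1 Chop-/- tumor each. Between 8953 and 11248 probes were detected per array, and the lowest correlation of 2 arrays of a group lay between 0.9286 (Chop-/- tumors) and 0.9862 (PBS-treated Chop-/- livers). Ddit3 was not detected on any of the 12 Chop-/- arrays, whereas it reached 6.41 to 6.50 in PBS-treated wild-type livers, 6.09 to 6.90 in DEN-treated wild-type livers and 8.37 to 8.90 in wild-type tumors. Hepatocyte markers were at a summed signal of 110000 to 130000 in the livers and 87800 to 101000 in the tumors, with all 8 of the list measured. Of these, Tat was undetected on both Chop-/- tumor arrays. The number of arrays per group, and of Chop-/- tumors above all, limits the precision of every value below.

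Mitochondrial ribosomes translate the few proteins encoded by mitochondrial DNA, all of them subunits of the respiratory chain and the ATP synthase, which hepatocytes need in quantity. Their ribosomal RNAs come from mitochondrial DNA, but all of their proteins are made in the cytosol from nuclear genes and imported. MRPL proteins build the large subunit, which joins amino acids into protein, and MRPS proteins build the small subunit, which reads the messenger RNA. The names are historical, and the products of Mrps18a and Mrps30 sit in the large subunit. Some members have homologues in bacterial ribosomes, while others are found only in mitochondria and coat the core. By structure 45 of the tested genes belonged to the large and 25 to the small subunit, 43 of the tested genes had a bacterial homologue, and 26 were specific to mitochondria. The genes lay on 17 chromosomes, with 2 of them on chromosome 10, which also carries Ddit3.

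Several short motifs stood in a larger share of the members' promoters than of promoters at large. Of the 76 genes, 67 had an entry among the RefSeq promoters (GRCm38.p6), each running from 250 bases before to 50 bases after the gene's start, and motifs were searched on both strands. The letters CCGGAAG, which ETS family factors bind, stood in 25 of the 67 (37.3%), against 9.12% of 27025 promoters, and in 14 of 41 Mrpl and 11 of 26 Mrps promoters. AAGATGGC, bound by YY1, stood in 12 of 67 (17.9%, against 2.88%), and GCATGCGC, an NRF1 site, in 8 of 67 (11.9%, against 2.8%). GGGCGG, the GC box, was found in 34 of 67 (50.7%, against 35.9%). CCGGAAG and AAGATGGC share the letters AAG and can overlap. The composite site of CHOP and ATF4, TGATGNAA, stood in none of the 67 and in 4.06% of all promoters, and TGACGTCA, a cyclic AMP response element, in 2 (2.99%, against 1.88%). These matches describe letters in a window and not binding. The 200 bases before the start of 5 genes on which the tumor results turn are printed 5′ to 3′ with matches in capitals, since these genes carry unlike motifs. Mrps6 (chr16:92058136-92058335, plus strand) held 4 GC boxes, the first pair sharing a base, and Mrpl34 (chr8:71464726-71464925, plus strand) held 1 ETS motif. In Mrpl49 (chr19:6057756-6057955, minus strand) there was a cyclic AMP response element and 2 GC boxes on the opposite strand. Mrps21 (chr3:95871515-95871714, minus strand) and Mrps5 (chr2:127587226-127587425, plus strand) had no match in these bases. In the rest of the searched window Mrps21 had an ETS motif at position 19 from the start and Mrps5 a GC box at -241. Mrpl49 had a YY1 motif at position 17.
Mrps6: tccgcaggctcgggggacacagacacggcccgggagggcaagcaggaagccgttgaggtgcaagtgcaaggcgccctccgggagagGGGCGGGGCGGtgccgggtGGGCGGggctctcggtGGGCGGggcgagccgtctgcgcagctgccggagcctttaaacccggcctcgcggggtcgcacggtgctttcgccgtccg
Mrpl34: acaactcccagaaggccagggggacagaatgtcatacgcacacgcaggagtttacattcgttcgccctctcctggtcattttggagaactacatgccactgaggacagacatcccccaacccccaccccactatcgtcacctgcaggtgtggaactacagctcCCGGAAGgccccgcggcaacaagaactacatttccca
Mrpl49: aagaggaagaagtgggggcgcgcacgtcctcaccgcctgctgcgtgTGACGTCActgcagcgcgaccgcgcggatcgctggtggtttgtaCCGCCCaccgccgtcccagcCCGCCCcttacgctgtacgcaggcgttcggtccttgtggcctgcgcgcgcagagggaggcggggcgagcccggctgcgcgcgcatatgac
Mrps21: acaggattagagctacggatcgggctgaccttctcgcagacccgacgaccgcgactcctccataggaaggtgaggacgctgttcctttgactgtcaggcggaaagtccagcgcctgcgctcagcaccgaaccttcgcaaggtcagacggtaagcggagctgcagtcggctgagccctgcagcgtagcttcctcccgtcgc
Mrps5: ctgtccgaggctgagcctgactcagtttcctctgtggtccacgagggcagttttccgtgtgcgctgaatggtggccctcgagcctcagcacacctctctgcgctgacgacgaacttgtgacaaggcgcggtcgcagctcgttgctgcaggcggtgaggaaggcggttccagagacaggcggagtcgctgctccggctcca

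In wild-type tumors more of the mitochondrial ribosomal protein genes were lower than higher relative to DEN-treated wild-type livers, and most passed no test. Of 70 genes, 14 fell and 3 rose (limma, adjusted p under 0.05 after Benjamini-Hochberg adjustment over all genes tested), against 10.2% of all genes lower and 12.1% higher. The median log2 difference of the 70 genes was -0.20, with 51 of them below 0, beside -0.009 over all genes tested. Within the array sets it was -0.201 in set A and -0.171 in set B. The genes that fell included core proteins of both subunits with bacterial homologues, 11 of 43 such genes, and 2 of the 26 mitochondria-specific genes, while the 3 that rose were Mrps6, Mrpl50 and Mrpl52.

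Mrpl14 (chr17:45685722-45698495), a conserved large subunit protein that in bacteria touches the small one, had 10.95, 11.05 and 11.18 as the lowest, median and highest level in DEN-treated wild-type livers and 10.15, 10.33 and 10.63 in the wild-type tumors. All 3 tumors lay below all 6 livers, and the level fell by 0.70 on the log2 scale (SE 0.127, 1.63-fold, adjusted p = 0.000316). Mrpl34 (chr8:71464926-71465753), another large subunit protein with a bacterial homologue, had 9.53, 9.67 and 9.89 in the livers and 8.72, 9.03 and 9.35 in the tumors, again without overlap, and fell by 0.65 (SE 0.139, 1.57-fold, adjusted p = 0.00163). These 2 genes kept their call under every alternative processing and without any single array.

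Mrpl49 (chr19:6053630-6057755), a mitochondria-specific protein of the large subunit, showed the largest fall of the members. Its levels were 9.999, 10.29 and 10.37 (lowest, median, highest) in DEN-treated wild-type livers and 9.91, 9.58 and 8.95 in the tumors, so 1 of the set A tumors was close to the livers and the set B tumor was far below them. The difference was -0.76 (SE 0.181, 1.70-fold, adjusted p = 0.00366), and it was not called without the set B tumor (adjusted p = 0.0653). Mrps5 (chr2:127587426-127603986), a small subunit protein whose bacterial homologue lies where the messenger RNA enters, had 7.79, 8.01 and 8.30 in the livers and 7.20, 7.73 and 7.24 in the tumors. It fell by 0.65 (SE 0.183, 1.57-fold, adjusted p = 0.0124), and all tumors lay below all livers. The call was lost without the set B tumor or without 1 of the set A tumors (adjusted p up to 0.0704).

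Mrps10, of the head of the small subunit, ranged from 8.30 to 8.71 (median 8.46) in the livers and was at 8.08, 7.87 and 7.70 in the tumors, a fall of 0.62 (SE 0.167, 1.53-fold, adjusted p = 0.0101) that was not called without the set B tumor (adjusted p = 0.0689). Mrps21 (chr3:95862634-95871514), a small subunit protein with a bacterial homologue, had 9.60, 9.89 and 10 (lowest, median, highest) in the livers and 9.16, 9.27 and 9.66 in the tumors. Only the set B tumor reached the range of the livers, and the difference was -0.49 (SE 0.132, 1.40-fold, adjusted p = 0.00988), which was not called without either set A tumor (adjusted p up to 0.0705). Mrpl2 (chr17:46646172-46650132), whose bacterial homologue lies beside the catalytic center of the large subunit, had 10.51, 10.83 and 11.07 in the livers and 10.52, 10.38 and 10.16 in the tumors, and it fell by 0.44 (SE 0.146, 1.36-fold, adjusted p = 0.032) with 1 tumor within the range of the livers. This call was lost without any 1 of 5 arrays, among them the set B tumor (adjusted p up to 0.179). The other 7 that fell were Mrpl24, Mrpl28, Mrpl55, Mrps7, Mrps9, Mrps18a and Mrps27, with differences by the probes used from -0.33 (Mrps7, -0.68 by a further probe) to -0.59 (Mrps27).

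Mrps6 (chr16:92058336-92112227), a small subunit protein with a bacterial homologue, ran against this direction. It was at 8.54, 8.61 and 8.69 (lowest, median, highest) in DEN-treated wild-type livers and at 9.02, 8.93 and 9.35 in the tumors, and rose by 0.49 (SE 0.145, 1.40-fold, adjusted p = 0.0168). Mrpl50 (chr4:49512597-49521083), specific to mitochondria, went from 10.70, 10.75 and 11.03 in the livers to 11.48, 11.22 and 11.38 in the tumors, a rise of 0.54 (SE 0.157, 1.46-fold, adjusted p = 0.0153). The third was Mrpl52 (chr14:54426909-54429750), likewise specific to mitochondria, at 11.11, 11.24 and 11.39 in the livers and 11.68, 11.55 and 11.90 in the tumors (log2 difference 0.46, SE 0.136, 1.38-fold, adjusted p = 0.0163). In all 3 genes every tumor lay above every liver, yet none of the 3 rises was called without the set B tumor, when 6 members were lower and 0 higher (adjusted p = 0.138 for Mrps6, 0.114 for Mrpl52 and 0.0666 for Mrpl50 at the highest of all settings).

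**Figure D1:**
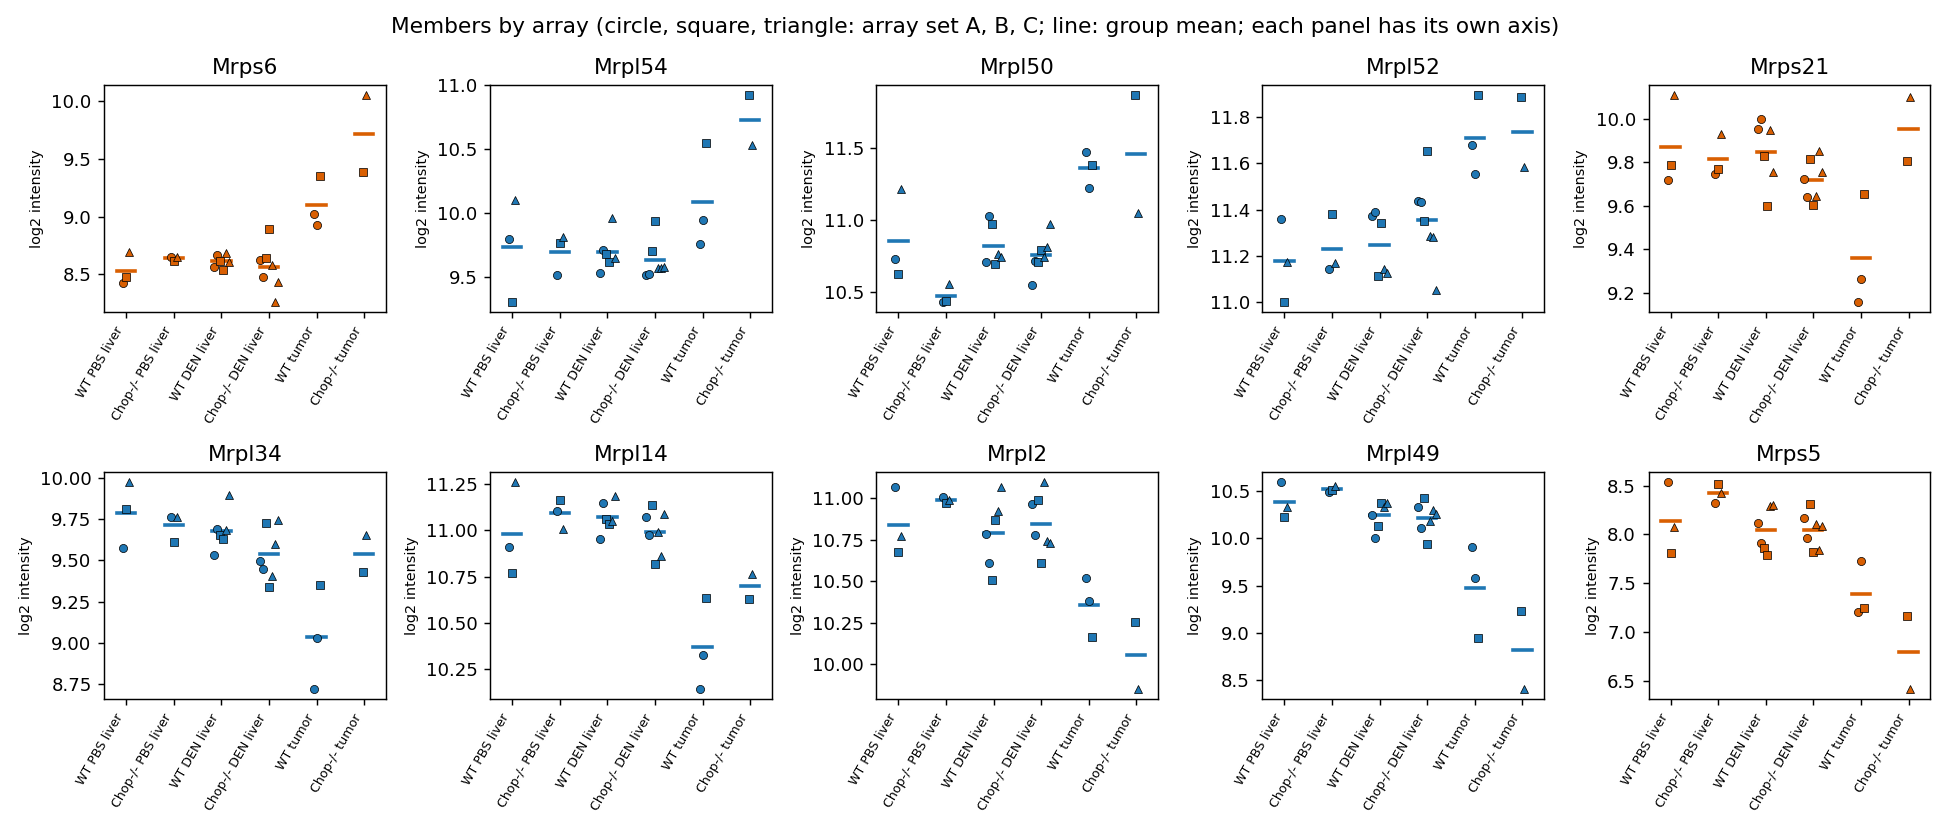
Normalized log2 intensity of 10 mitochondrial ribosomal protein genes on each of the 24 arrays, by group. Circles, squares and triangles stand for array sets A, B and C, and the line is the group mean. Mrps6 lies highest in the 2 Chop-/- tumors (9.39 and 10.05), the group means of Mrpl49 and Mrps5 are lowest there, and those of Mrpl34 and Mrpl14 are lowest in the 3 wild-type tumors.

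Against PBS-treated wild-type livers, the same 3 tumors gave 15 genes lower and 2 higher of 70, where 8.42% of all genes were lower and 10.8% higher. The median of the members was -0.26 (-0.001 over all genes), at -0.222 within set A and -0.134 within set B. Mrpl49 fell by 0.91 (SE 0.209, 1.87-fold, adjusted p = 0.00344) from 10.59, 10.23 and 10.33, and Mrpl34 by 0.75 (SE 0.16, 1.69-fold, adjusted p = 0.00171) from 9.58, 9.81 and 9.97. Mrpl14 fell by 0.61 (1.53-fold, adjusted p = 0.00469), Mrpl55 by 0.66 (1.58-fold, adjusted p = 0.00517) and Mrps10 by 0.72 (1.65-fold, adjusted p = 0.0101). Mrpl3, a core protein near the catalytic center, went from 8.38, 8.59 and 9.19 in these livers to 7.88, 8.23 and 7.90 in the tumors, a fall of 0.72 (SE 0.187, 1.65-fold, adjusted p = 0.00844). Mrps6 (log2 difference 0.57, adjusted p = 0.0182) and Mrpl52 (0.53, adjusted p = 0.0185) rose.

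These counts leaned on 2 arrays. The set C PBS-treated wild-type liver stood apart from the other 2, since its median over the members lay 0.293 above each gene's mean over all arrays, beside 0.036 and 0.021. Without it 5 genes were lower and 3 higher, and the fall of Mrpl3 was no longer called (adjusted p up to 0.145 over all settings). Without the set B tumor 10 were lower and 0 higher, and Mrps10, Mrps6 and Mrpl52 were among those no longer called. When only the 2 groups compared were fitted, 0 were called (Benjamini-Hochberg adjusted p in limma, while in the fit to all groups 26 members were lower and 4 higher with an unadjusted p below 0.05, beside 14.5% and 16.3% of all genes).

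In Chop-/- tumors similar numbers of members rose and fell, and the median of all members lay near 0. Against DEN-treated Chop-/- livers 8 rose and 9 fell of 70, where 19.1% of all genes were higher and 20.3% lower, and the median of the members was 0.003 (-0.047 over all genes), with 36 above and 34 below 0. Within set B the median was 0.022 and within set C -0.096. Relative to PBS-treated Chop-/- livers, 11 rose and 13 fell, against 21.1% and 22.4% of all genes, with a median of -0.003. Those called there but not against DEN-treated livers included Mrpl53 (0.80, adjusted p = 0.0231) and Mrpl42 (0.47, adjusted p = 0.0432), which rose. They also included Mrpl1 (-0.57, adjusted p = 0.0331), Mrpl10 (-0.42, adjusted p = 0.0122) and Mrps34 (-0.46), which fell. The comparisons with DEN-treated and with PBS-treated livers share the 2 tumors. Without the set C tumor the counts were 6 higher and 4 lower, and 5 and 5, respectively.

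Mrps6 had the largest rise. Its level was 8.26, 8.58 and 8.90 (lowest, median, highest) in DEN-treated Chop-/- livers, 8.65, 8.62 and 8.65 in PBS-treated Chop-/- livers and 9.39 and 10.05 in the Chop-/- tumors. Both tumors lay above all 10 livers, by 1.16 against DEN-treated livers (SE 0.164, 2.23-fold, adjusted p = 8.89e-06) and by 1.08 against PBS-treated livers (SE 0.187, 2.11-fold, adjusted p = 8.52e-05). Mrps6 shares its locus with Slc5a3, a myo-inositol transporter gene, whose 1 probe was detected on 0 of 24 arrays. Mrpl54 (chr10:81264722-81266926), a mitochondria-specific large subunit protein, was at 9.52, 9.57 and 9.94 in DEN-treated Chop-/- livers and at 10.92 and 10.54 in the tumors, again without overlap. It rose by 1.10 (SE 0.198, 2.14-fold, adjusted p = 0.000134), and by 1.03 over PBS-treated livers (2.04-fold, adjusted p = 0.000825).

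Mrpl50 rose by 0.70 over DEN-treated Chop-/- livers (SE 0.178, 1.63-fold, adjusted p = 0.00315) and by 0.99 over PBS-treated ones (SE 0.203, 1.98-fold, adjusted p = 0.000493), with tumors at 11.87 and 11.05. The first tumor, of set B, stood further above the livers (10.55 to 10.97), and without it the difference from DEN-treated livers was not called. Mrpl13, a large subunit protein with a bacterial homologue, was at 10.71, 10.99 and 11.06 (lowest, median, highest) in the DEN-treated livers and at 11.31 and 11.92 in the tumors (log2 difference 0.69, SE 0.182, 1.61-fold, adjusted p = 0.00438). Mrpl33, another such protein, had 10.68, 10.88 and 11.01 in the livers and 11.32 and 11.73 in the tumors (0.66, SE 0.168, 1.58-fold, adjusted p = 0.00335). In both genes the set C tumor was the higher one, and neither call held without it. Mrpl20 (0.50, adjusted p = 0.0225), Mrpl30 (0.52, adjusted p = 0.0225) and Mrpl40 (0.43, adjusted p = 0.029) rose as well, though Mrpl20 was not called without the set B tumor, Mrpl30 without the set C tumor and Mrpl40 without either.

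Among the genes that fell, Mrpl49 was lowest relative to liver. It was at 9.94, 10.26 and 10.42 (lowest, median, highest) in DEN-treated Chop-/- livers, 10.49, 10.51 and 10.56 in PBS-treated ones and 9.23 and 8.41 in the tumors. This was a fall of 1.40 (SE 0.205, 2.63-fold, adjusted p = 1.43e-05) and of 1.70 (SE 0.234, 3.24-fold, adjusted p = 6.75e-06), respectively. Mrps5 went from 7.82, 8.08 and 8.31 in DEN-treated and 8.32, 8.52 and 8.42 in PBS-treated Chop-/- livers to 7.17 and 6.42 in the tumors. It fell by 1.25 (SE 0.208, 2.37-fold, adjusted p = 6.01e-05) and by 1.63 (SE 0.237, 3.09-fold, adjusted p = 1.31e-05). In both genes the 2 tumors lay below every liver and the set C tumor lay below the set B tumor.

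Mrpl2 was at 10.61, 10.78 and 11.10 (lowest, median, highest) in DEN-treated Chop-/- livers and at 10.26 and 9.85 in the tumors, and fell by 0.79 (SE 0.165, 1.73-fold, adjusted p = 0.000589). Mrpl4, whose bacterial homologue lines the exit tunnel of the growing protein, was at 7.07, 7.54 and 7.77 in the livers and at 6.91 and 6.48 in the tumors, a fall of 0.79 (SE 0.213, 1.73-fold, adjusted p = 0.00489) that was not called without the set C tumor. Mrps2 (-0.53, adjusted p = 0.00769), Mrpl37 (-0.51, adjusted p = 0.00234), Mrpl38 (-0.47, adjusted p = 0.029), Mrpl35 (-0.45, adjusted p = 0.044) and Mrpl15 (-0.49, adjusted p = 0.05, just inside the threshold) also fell, and none of these 5 was called without the set C tumor. Against PBS-treated livers Mrps27, a small subunit protein specific to mitochondria, fell by 0.98 (SE 0.254, 1.97-fold, adjusted p = 0.00356), again not without the set C tumor (adjusted p up to 0.154). The calls of Mrps6, Mrpl54, Mrpl49, Mrps5 and Mrpl2 in both Chop-/- comparisons held under every alternative and without any single array.

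**Figure D2:**
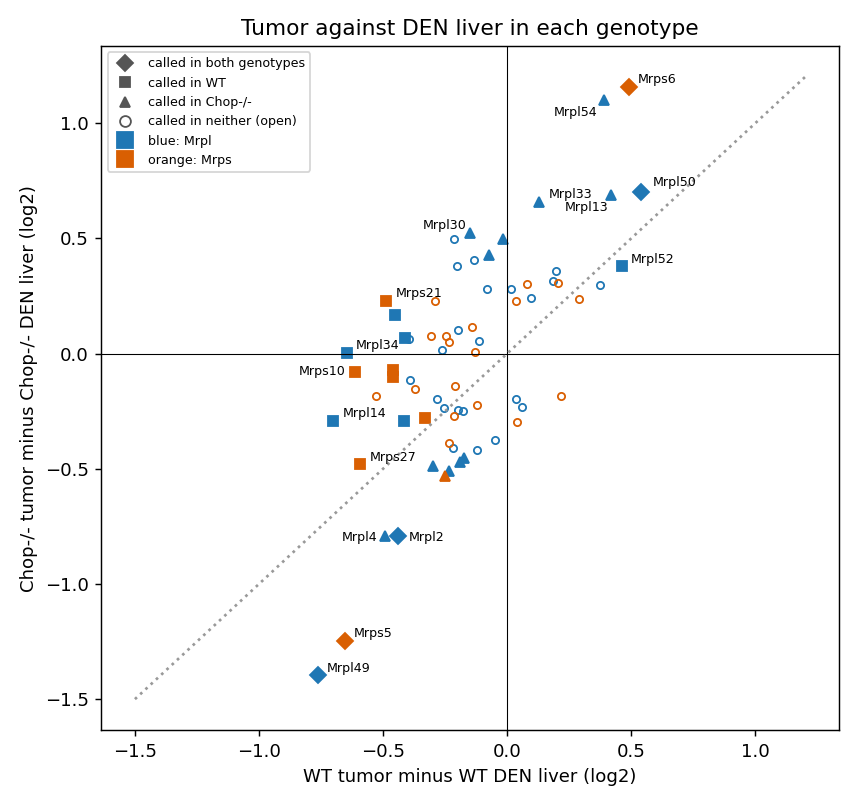
Log2 difference of tumor minus DEN-treated liver for the 70 tested genes in wild-type (horizontal axis) and Chop-/- mice (vertical axis). Filled diamonds, squares and triangles are genes called in both genotypes, in wild-type mice and in Chop-/- mice, open circles are called in neither, blue is Mrpl and orange Mrps, and the dotted line marks equal differences. Mrps6 and Mrpl50 lie at the upper right, Mrpl49, Mrps5 and Mrpl2 at the lower left.

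No sample is shared by the comparison of wild-type tumors with their DEN-treated livers and that of Chop-/- tumors with theirs. By the probes used, Mrps6 and Mrpl50 rose in both. These are 2 of the 3 genes that rose in wild-type and 2 of the 8 that rose in Chop-/- tumors. Mrpl2, Mrpl49 and Mrps5 fell in both, which is 3 of 14 and 3 of 9. No gene, 0 of 70, was called in opposite directions. Further probes of Mrpl13 (higher) and Mrps7 (lower) were called in both genotypes. Of all genes, 12.1% were higher and 10.2% lower in wild-type tumors, and 19.1% and 20.3% in Chop-/- tumors. How many of all genes were called in both genotypes, or in opposite directions, was not counted. The overlap is therefore not shown to be particular to the members. A test of the difference between the genotypes itself, that is, whether tumor minus liver differed in Chop-/- from wild-type mice, called 1 gene higher and 0 lower, beside 1.64% and 3.05% of all genes.

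That gene was Mrps21, which fell in wild-type tumors but was at 9.80 and 10.10 in the Chop-/- tumors, near the DEN-treated Chop-/- livers (9.61 to 9.85, median 9.72). The difference of the differences was 0.72 (SE 0.2, adjusted p = 0.0402). It rested on single arrays, since leaving out any 1 of 10 arrays ended the call, among them both set A wild-type tumors and the set C Chop-/- tumor (adjusted p up to 0.354 over all settings). Mrpl34 was the next (0.65, SE 0.21, adjusted p = 0.0746), with Chop-/- tumors at 9.43 and 9.65 beside DEN-treated Chop-/- livers of 9.34 to 9.74. Mrps6 (0.67, adjusted p = 0.0763), Mrpl28 (0.62, adjusted p = 0.0813) and Mrpl30 (0.67, adjusted p = 0.0961) followed, none of them past the threshold. Mrpl14 had Chop-/- tumors at 10.63 and 10.77, against 10.82 to 11.14 in the DEN-treated Chop-/- livers.

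Directly between tumors of the genotypes, 2 of 70 genes were higher and 0 lower in Chop-/- tumors, where 4.43% of all genes were higher and 6.12% lower. Both were small subunit genes. Mrps21 was at 9.16, 9.27 and 9.66 in wild-type and at 9.80 and 10.10 in Chop-/- tumors (log2 difference 0.59, SE 0.171, 1.51-fold, adjusted p = 0.0288), and Mrps6 at 9.02, 8.93 and 9.35 against 9.39 and 10.05 (0.62, SE 0.187, 1.53-fold, adjusted p = 0.0358). The groups did not overlap in either gene. Within set B, which held 1 tumor of each genotype, the differences were 0.148 for Mrps21 and 0.034 for Mrps6, and neither gene was called without either of the set A wild-type tumors or the set C Chop-/- tumor. With the array set as a block 0 were called. In the fit to all groups, 16 members were higher and 5 lower with an unadjusted p below 0.05, where 11.9% and 14.5% of all genes were.

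Mrpl28, a large subunit protein with a bacterial homologue, had 10.48, 10.34 and 10.57 in wild-type and 11.07 and 10.95 in Chop-/- tumors (0.54, 1.46-fold), just outside the threshold with an adjusted p of 0.0501. Mrpl54 differed by 0.65 (adjusted p = 0.0667) and Mrpl49 by -0.66 (adjusted p = 0.0712, with 0.088, 0.569 and 0.566 by its other probes). Mrps5 differed by -0.60 (adjusted p = 0.104), with -0.11 by its other probe. The median of the members was 0.165, with 44 above 0, beside -0.031 over all genes. It was 0.079 within set B and 0.069 without 1 of the set A wild-type tumors. Cytosolic ribosomal protein genes moved further apart, with 26 of 57 higher in Chop-/- tumors, 0 lower and a median of 0.598.

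**Figure D3:**
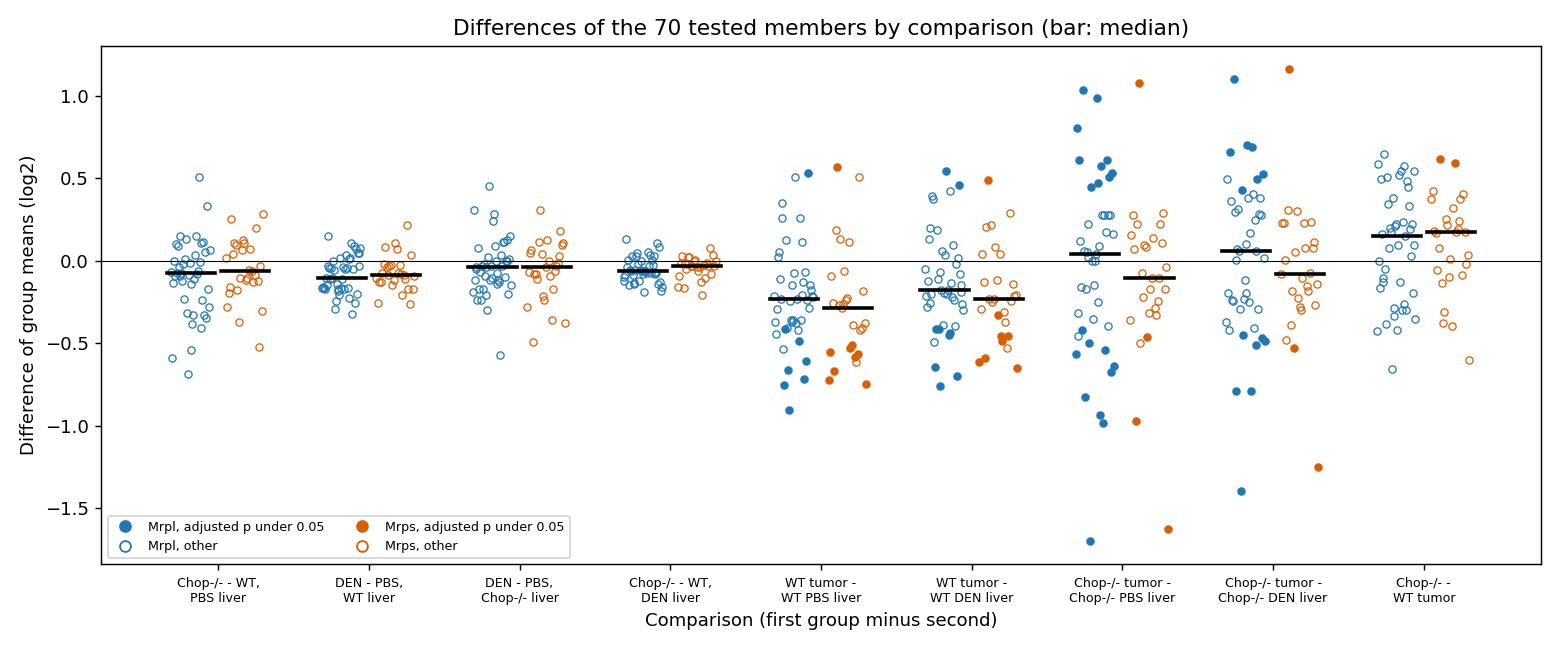
Log2 difference between group means for the 70 tested genes in 9 comparisons, with Mrpl genes in blue and Mrps genes in orange. Filled points have an adjusted p under 0.05, and bars are medians. No point is filled in the 4 comparisons between livers at the left, and the widest spread, from -1.70 (Mrpl49) to 1.08 (Mrps6), is that of Chop-/- tumors against PBS-treated Chop-/- livers.

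The medians of the Mrpl and Mrps classes, described here with no test, lay within 0.145 of each other in every comparison. The gaps were widest in Chop-/- tumors, where a smaller share of Mrps than of Mrpl genes was called. In wild-type tumors against DEN-treated livers 7 of 43 Mrpl genes fell and 2 rose (median -0.179), and 7 of 27 Mrps genes fell and 1 rose (median -0.235). Of all genes 10.2% fell and 12.1% rose. Against PBS-treated livers the counts were 7 lower and 1 higher of the Mrpl genes (median -0.23), and 8 lower and 1 higher of the Mrps genes (median -0.285). Of all genes 8.42% were lower and 10.8% higher. In Chop-/- tumors against DEN-treated livers 7 Mrpl genes fell and 7 rose (median 0.056), and 2 Mrps genes fell and 1 rose (median -0.079). Neither class exceeded the shares of all genes, 20.3% lower and 19.1% higher. Against PBS-treated Chop-/- livers it was 10 lower and 10 higher for Mrpl (median 0.04), and 3 lower and 1 higher for Mrps (median -0.105). Of all genes 22.4% were lower and 21.1% higher.

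The median of Mrpl less that of Mrps was 0.056 for wild-type tumors against DEN-treated livers, where this quantity had an SD of 0.055 between arrays of a group. For the Chop-/- tumors it was 0.135 against DEN-treated livers (SD 0.104) and 0.145 against PBS-treated livers (SD 0.103). Without the set B Chop-/- tumor the first of these was 0.039 and the second turned to -0.032, and the 2 tumors themselves differed, with 0.175 and -0.026. In the remaining comparisons the 2 classes lay within 0.054 of each other. By structure the picture was alike, with 8 of 45 large and 6 of 25 small subunit genes lower in wild-type tumors than in DEN-treated livers (10.2% of all genes). In Chop-/- tumors against DEN-treated livers the 17 mitochondria-specific genes of the large subunit had the highest median of the classes, 0.279. Of these, 3 were higher and 3 lower, beside 19.1% and 20.3% of all genes.

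**Figure D4:**
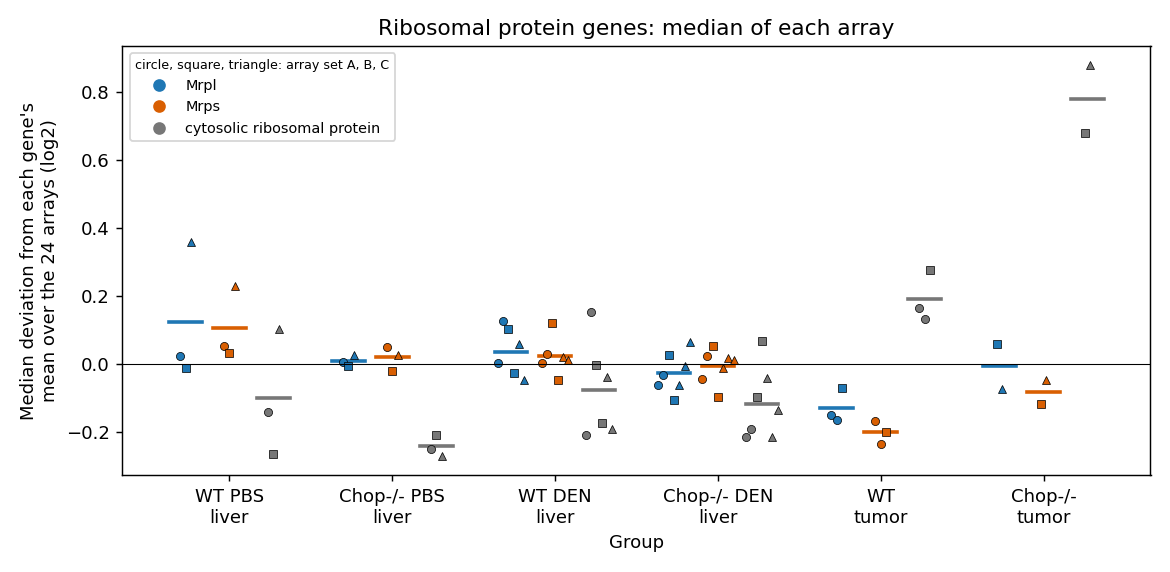
Median over Mrpl genes (blue), Mrps genes (orange) and cytosolic ribosomal protein genes (grey) of the log2 deviation from each gene's mean over the 24 arrays, 1 point per array and a line for the group mean. Circles, squares and triangles are array sets A, B and C. Mrpl and Mrps lie within 0.175 of each other on every array, and both lie below 0 in the wild-type tumors. The set C PBS-treated wild-type liver stands out at 0.359 and 0.229, and the cytosolic genes reach 0.679 and 0.877 in the Chop-/- tumors.

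Between livers no member passed the test. PBS-treated Chop-/- and wild-type livers gave 0 of 70 (0.0223% of all genes, either direction), with 1 higher and 8 lower at an unadjusted p under 0.05 (5.65% and 4.84% of all genes) and a median of -0.075. Mrpl35, a large subunit protein with a bacterial homologue, was at 6.27, 6.51 and 6.87 in wild-type and at 5.87, 5.65 and 6.06 in Chop-/- livers, and the groups did not overlap (log2 difference -0.69, SE 0.179, 1.61-fold, adjusted p = 0.268). Mrps22, specific to mitochondria, had 9.24, 9.21 and 9.92 against 9.00, 8.87 and 8.93 (-0.52, adjusted p = 0.414), and Mrpl46 differed by -0.35 (adjusted p = 0.438). The median rested on set C. It was 0.022 and 0.016 within sets A and B, -0.235 within set C, and 0.034 without the set C wild-type liver. Kupffer cell markers moved with genotype here, with a summed signal of 2250 to 2850 in wild-type and 919 to 1360 in Chop-/- livers (6 of 8 measured), and their part in these values was not tested.

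DEN-treated Chop-/- and wild-type livers also gave 0 of 70 (0.0223% of all genes), with 0 at an unadjusted p under 0.05 (1.68% of all genes) and a median of -0.053, which lay between -0.063 and -0.053 within the 3 array sets. The smallest p-values belonged to Mrpl46 (-0.14), Mrpl24 (-0.14) and Mrpl22 (-0.19), each with an adjusted p of 1. DEN treatment itself gave 0 of 70 in wild-type livers (0% of all genes), with 0 at an unadjusted p under 0.05 (2.74% of all genes) and a median of -0.087. This median rested on the set C PBS-treated liver, as it was 0.015 within set A, 0.023 within set B, -0.275 within set C and -0.002 without that liver. There Mrpl3 (-0.32), Mrpl11 (-0.29) and Mrps16 (-0.26) had the smallest p-values, each with an adjusted p of 1. In Chop-/- livers it gave 0 of 70 (0.0223% of all genes), with 2 higher and 3 lower unadjusted (4.13% and 3.79% of all genes) and a median of -0.039. Mrpl51 (-0.58, adjusted p = 0.501), Mrpl35 (0.45, adjusted p = 0.501) and Mrps27 (-0.50, adjusted p = 0.557) came first. The response to DEN differed between genotypes in 0 of 70 members (0% of all genes, with 1 higher and 1 lower unadjusted beside 1.76% of all genes each way), where Mrpl35 (0.63), Mrpl51 (-0.58) and Mrps22 (0.44) had the smallest p-values and each an adjusted p of 0.994.

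Several members with a known role outside or at the heart of translation stayed short of the test in the tumors. Mrps12, of the decoding center, differed by 0.038 (wild-type tumors, adjusted p = 0.891) and -0.30 (Chop-/- tumors, adjusted p = 0.153) from DEN-treated livers. Mrpl12, of the stalk that recruits translation factors and known in human cells to bind the mitochondrial RNA polymerase, differed by -0.20 (adjusted p = 0.358) and 0.10 (adjusted p = 0.654). For Mrpl11, at the base of that stalk, the values were -0.11 and 0.056, and for Mrpl58, which frees stalled ribosomes, -0.14 and 0.40, each with an adjusted p over the threshold. Of the 3 copies of the S18 protein, Mrps18a fell in wild-type tumors (-0.46, adjusted p = 0.0198, but up to 0.17 without 1 of the set A tumors) and was at -0.10 in Chop-/- tumors, whereas Mrps18b was at -0.25 and 0.077 and Mrps18c at 0.037 and 0.23. Mrps30 was called lower in wild-type tumors against PBS-treated livers (-0.58, adjusted p = 0.036), with overlapping groups, not without any 1 of 4 arrays, and in no other comparison.

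Genes that assemble mitochondrial ribosomes or assist translation, a list of which 37 were tested, fell with few exceptions where they were called. In wild-type tumors 7 fell and 0 rose against DEN-treated livers (median -0.262), beside 10.2% lower and 12.1% higher of all genes. In Chop-/- tumors 13 fell and 1 rose (median -0.301), beside 20.3% and 19.1% of all genes. Noa1, a GTPase needed to build the small subunit, was at 8.41, 8.59 and 8.79 (lowest, median, highest) in DEN-treated wild-type livers and 7.57, 7.74 and 7.89 in the tumors, and at 8.11, 8.57 and 8.76 in DEN-treated Chop-/- livers and 7.02 and 7.40 in the tumors. Every tumor lay below every liver of its genotype, by 0.86 (SE 0.138, 1.81-fold, adjusted p = 9.79e-05) and 1.30 (SE 0.156, 2.47-fold, adjusted p = 1.19e-06), respectively.

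In the Chop-/- tumors Gfm2, which splits used ribosomes, fell by 1.25 (SE 0.19, 2.38-fold, adjusted p = 2.11e-05), Mettl17, an assembly factor of the small subunit, by 1.24 (SE 0.177, 2.36-fold, adjusted p = 1.03e-05), and Polrmt, the mitochondrial RNA polymerase, by 0.98 (SE 0.209, 1.98-fold, adjusted p = 0.000696). Rpusd4, which modifies the large ribosomal RNA, rose by 0.62 (SE 0.132, 1.53-fold, adjusted p = 0.000782). Gfm2 was also the only gene of the list called between tumors, lower in Chop-/- tumors by 0.79 (SE 0.216, 1.72-fold, adjusted p = 0.0231). Oxidative phosphorylation genes, whose mitochondrial subunits these ribosomes make, had 25 of 73 lower and 1 higher in wild-type tumors (median -0.296), and 14 lower and 8 higher in Chop-/- tumors (median -0.087), against DEN-treated livers. Cytosolic ribosomal protein genes went the other way, with 11 of 57 higher and 0 lower (median 0.277), and 51 higher and 0 lower (median 0.87). Of all genes, 10.2% were lower and 12.1% higher in wild-type tumors, and 20.3% and 19.1% in Chop-/- tumors. The 14 of 73 lower oxidative phosphorylation genes in Chop-/- tumors were thus close to the share of all genes.

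Markers of other cells moved with the tumors too. Cycling cell markers (4 of 6 measured) summed to 96.3 to 257 in the livers, 591 to 630 in wild-type and 408 to 749 in Chop-/- tumors. Kupffer cell markers summed to 471 to 658 in Chop-/- tumors, against 1360 to 1770 in DEN-treated Chop-/- livers. Timd4 and Marco were undetected in those tumors. In wild-type mice Kupffer cell markers summed to 989 to 2020 in tumors and 1740 to 3190 in DEN-treated livers, with overlap. Neutrophil and monocyte markers (3 of 5 measured) were at 260 and 3250 in the 2 Chop-/- tumors, against 101 to 374 in the livers. Endothelial markers (5 of 6 measured) summed to 1750 to 3350 in Chop-/- tumors, against 3920 to 5210 in DEN-treated Chop-/- livers. Stellate cell markers (6 of 6 measured) summed to 3550 to 4140 against 5350 to 6580. Neither of these pairs of ranges overlapped. Lrat was undetected in these tumors, whereas Col1a1 was undetected on every array of these livers but not of the tumors. In wild-type mice the ranges of tumors and DEN-treated livers overlapped. They were 3830 to 7760 against 4180 to 5330 for endothelial markers, and 4300 to 6040 against 5510 to 6250 for stellate cell markers. Their part in the tumor differences was not tested, and fewer cells of a type cannot be told apart from less RNA per cell in such samples.

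Where a member had several probes, they did not always move together. Of the 70 genes 49 were measured by 1 detected probe and 21 by several, of which the brightest was used. For Mrpl49 in Chop-/- tumors against DEN-treated livers, the probe used fell by 1.40 and a further probe detected on all 24 arrays fell by 0.67 (adjusted p over probes 0.0207), whereas 2 probes detected on 10 and 9 arrays gave 0.20 and 0.23. A further Mrps5 probe, detected on all 24 arrays, gave -0.66 (adjusted p over probes 0.052) against DEN-treated and -0.54 (0.156) against PBS-treated Chop-/- livers, so that neither fall of Mrps5 there was called by both probes. The further probe of Mrpl37 gave -0.17 (0.55) against DEN-treated Chop-/- livers, and the mean of its probes was not called. A further Mrpl13 probe, detected on all 24 arrays, gave 0.52 (0.0434) in wild-type and 0.78 (0.0041) in Chop-/- tumors against DEN-treated livers. The Mrpl13 probe used gave 0.42 (0.0707) in wild-type tumors. In wild-type tumors further probes also fell for Mrps11 against DEN-treated livers (-0.58, 0.0302) and for Mrps31 against PBS-treated livers (-0.54, 0.0462). The probes used for these 2 genes were not called there (-0.23, 0.376, and -0.38, 0.0773). A further Mrps7 probe, detected on all 24 arrays, gave -0.68 (0.00387) in wild-type tumors against DEN-treated and -0.74 (0.00755) against PBS-treated livers. In Chop-/- tumors it gave -0.89 (0.000586) and -0.835 (0.00283), respectively. The Mrps7 probe used gave -0.28 (0.104) and -0.32 (0.0983) there, and was not called. Mrps26, of the small subunit, was not called by the probe used (-0.27, adjusted p over probes 0.0769), while its other probe, also detected on all 24 arrays, rose by 1.06 (adjusted p over probes 0.000192), and by 0.67 in wild-type tumors (0.00744). Mrpl51 fell by 0.99 in Chop-/- tumors against PBS-treated livers (adjusted p = 0.00128) by 1 probe, and its others gave 0.31 and 0.02, so that the mean of its probes was not called. In that comparison the further probes of Mrpl1 (-0.21, adjusted p over probes 0.662) and Mrpl10 (-0.16, 0.462) were not called. For both genes the mean of the probes was not called either. Mrpl57 was undetected on every PBS-treated Chop-/- array and detected on 2 of 3 PBS-treated wild-type arrays, where its levels of 4.71, 6.02 and 6.38 overlapped the 5.09 to 5.26 of the former. Of the tested members, 22 overlap another annotated gene, among them Mrpl49 (Syvn1), Mrpl14 (Tmem63b), Mrpl2 (Klc4) and Mrps6 (Slc5a3).

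Across arrays, the members followed each other weakly, whether or not group means were removed. With group means removed, the median correlation over the 24 arrays was 0.133 for 903 pairs of Mrpl genes. It was 0.0799 for 351 pairs of Mrps genes and 0.117 for 1161 pairs of 1 Mrpl and 1 Mrps gene. With group means kept, the medians were 0.161, 0.177 and 0.159, respectively. All pairs shared arrays and normalization, and no value for pairs of other genes was set beside them. The members varied least in PBS-treated Chop-/- livers (median SD 0.101 on the log2 scale) and most in PBS-treated wild-type livers (0.257), with 0.211 and 0.21 in the tumors. Over all genes tested the same groups were lowest (0.178) and highest (0.302), so this order was not particular to the members.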

How the data were processed

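RNA of 24 liver and tumor samples was profiled on Illumina arrays, 1 array per sample. The authors exported bead intensities with GenomeStudio 2011.1, and the deposited intensity is background subtracted (26.9% of values are negative) and already has 1 distribution across arrays. The deposited detection p-value compares a probe with negative control beads. A table of log2 values deposited by the authors equals the log2 of the intensity plus about 104.1 and was tried as an alternative. Each array was put in its group by the array names in a header of the study's supplementary table. A further 48 columns of per-sample values, bead counts and bead errors, were not used.

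The neqc function of limma (version 3.58.1, under R 4.3.3 with statmod 1.5.0) corrected and normalized the intensities, adding an offset of 16 before log2. A probe was kept with a detection p under 0.01 on 2 or more arrays, and each gene is represented by its brightest probe. Gene symbols follow the array annotation and were checked against RefSeq through the gene identifiers. One linear model with a mean for each of the 6 groups took in all 24 arrays with moderated variances, without covariates, and p-values of 11 contrasts received Benjamini-Hochberg adjustment over 8969 genes. Intensities corrected before deposit were thus corrected again, which the alternatives address. The model was tested on simulated data with known changes.

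The members, gene lists and tests were chosen with earlier results of these data known. Genes were named by rule: for each direction, up to 5 called members of greatest fold change, or the 3 of smallest p if under 3 were called, the 5 with the smallest p for the difference between genotypes, members whose probes disagree, members undetected in a group, and a set with known roles. The other called members and, from the list of assembly and translation genes, 5 more genes were named after their values were seen. Alternatives changed the scale (median scaling, no further background correction, the log2 values of the authors), the probes (other detection filters, averaging over a gene's probes), the model (array weights, a fit to the compared groups alone, a block for array set or for replicate number) and the classes (by structure), or left out each array.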

Additional observations from a re-analysis of the deposited data

Results flagged for a closer look

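The change from DEN-treated liver to tumor differed between the genotypes for Mrps21, by 0.72 on the log2 scale, by a test of the difference itself. It was the 1 member of 70 called higher, where 1.64% of all genes were, and the call was lost with array weights, with the array set as a fixed block and without any 1 of 10 arrays.

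Within the larger groups, 5 of 90 values examined had 1 array far from the others, where chance gives about 1 in 20. In DEN-treated wild-type livers, a set B array had 8.18 for Mrpl11, a protein at the base of the stalk, with the nearest other array at 7.87, and a set A array had 11.64 for Mrps7 (nearest 11.43). In DEN-treated Chop-/- livers, a set B array had 9.41 for Mrpl30 (nearest 9.73), another set B array had 7.49 for Mrps27 (nearest 6.94), and a set C array had 9.42 for Mrps22 (nearest 9.14). These 5 arrays were different arrays, and the cause was not tested.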

How the results depend on the processing

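Counts of called members were 0 in the comparisons between livers under every alternative and without any single array. Between tumors of the genotypes the 2 calls became 6 with the authors' log2 values, and 0 with array weights, with only the groups compared or with the array set as a fixed block. For the difference between genotypes the 1 call became 4 with the authors' log2 values and 0 with array weights or the fixed block. The 17 calls of wild-type tumors became 0 against PBS-treated and 10 against DEN-treated livers with only the groups compared, and 11 and 27 with array weights. For Chop-/- tumors the 17 calls against DEN-treated livers became 5 with array weights, and the 24 against PBS-treated livers became 6 with array weights and 11 with only the groups compared. The cause was not tested, except that fitting only the groups compared leaves fewer samples.

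The replicate numbers of the labels could be tied only to the columns of the authors' log2 table. Correlations of same-numbered samples' deviations from their group means ran from -0.186 to 0.321, and in no comparison did all pairs exceed 0.1 or, with 3 or more pairs, every sample correlate best with its own number. With the replicate number as a block on the authors' log2 values, 8 members were called between tumors (6 without the block) and 5 for the difference between genotypes (4 without), the median of Chop-/- tumors against PBS-treated livers was 0.013, and the Mrpl less Mrps median of Chop-/- DEN-treated against PBS-treated livers was -0.083.

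The median of the members between tumors, 0.165, was 0.129 with the authors' log2 values, 0.095 without a filter and 0.118 with the fixed block. For Chop-/- tumors against PBS-treated livers the median of -0.003 was -0.019 without a filter, 0.03 with the mean of a gene's probes and -0.036 with the fixed block. With array weights the median for the difference between genotypes was 0.215, and Mrpl less Mrps was -0.037 for DEN-treated against PBS-treated Chop-/- livers. With the mean of a gene's probes, Mrpl less Mrps was 0.145 for wild-type tumors against PBS-treated livers, and the response of Mrpl51 to DEN by genotype turned from -0.58 to 0.09 (adjusted p = 0.994).

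Leaving out 1 array at a time gave 0 to 9 calls between tumors, 0 to 8 for the difference between genotypes, 8 to 16 and 6 to 18 for wild-type tumors against PBS-treated and DEN-treated livers, and 10 to 20 and 10 to 19 for Chop-/- tumors. The median ranged from 0.069 to 0.174 between tumors, from 0.077 to 0.207 for the difference between genotypes, from -0.04 to 0.02 and -0.086 to 0.009 for Chop-/- tumors against DEN-treated and PBS-treated livers, from -0.143 to 0.034 between PBS-treated livers and from -0.065 to 0.098 for the response to DEN by genotype. Mrpl less Mrps ranged from -0.036 to 0.08 for that response, from -0.037 to 0.013 for DEN in Chop-/- livers, from -0.032 to 0.126 for Chop-/- tumors against PBS-treated Chop-/- livers, from -0.071 to 0.13 between tumors and from -0.11 to 0.077 for the difference between genotypes. Of 78 single gene calls, 936 values under other settings kept the call in 827 cases and lost it in 109, and 556 values without 1 array kept it in 403 and lost it in 153. Signal over background limits few members, since 68 of 70 were detected on every array.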
